A study of Mus musculus with 87 samples.

Results

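The genes described here are the classical cadherins, the protocadherins, the Fat and Dachsous cadherins, the Celsr receptors and the teneurins of mouse ventral midbrain nuclei. They were taken by symbol (Cdh with a number, Pcdh, Fat1 to Fat4, Dchs, Celsr1 to Celsr3 and Tenm1 to Tenm4) and were kept with 50 or more counts over all wells of sorted nuclei. Of 48526 genes in the table, 107 had such a symbol and 42 were kept, 60 had no count, and 5 had between 5 and 44 counts. Those 5 were Cdh3 with 44 counts, Cdh5 with 34, Cdh17 with 30, Cdh26 with 17 and Pcdh12 with 5, and the members nearest to the limit were Celsr1 with 62 and Fat2 with 80. By role the members were 3 type I and 12 type II cadherins, 2 atypical cadherins, 9 delta protocadherins, 2 other solitary protocadherins, 1 clustered protocadherin, 6 Fat and Dachsous genes, 3 Celsr genes and 4 teneurins. Pcdha1 stood for the clustered protocadherins alone, and because its annotated gene spans the whole alpha cluster its counts cannot be assigned to a single isoform. Apart from Cdh15 and Cdh16, the genes with no count were all clustered protocadherins of the alpha, beta and gamma clusters. A count of 0 there does not show that a gene was silent, and its cause was not tested.

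Wild-type adult C57BL/6J mice of both sexes received IFN-γ or saline by stereotactic injection into the ventral midbrain, and nuclei were sorted into a neuronal NeuN+ and a largely glial NeuN- fraction at 6, 24, 48 or 72 h. Each fraction gave 42 wells, 6 IFN-γ wells per time, 6 saline wells at 24 h and 4 saline wells at the other times. A second experiment measured single nuclei at 48 h, from 1 saline mouse and 2 IFN-γ mice. GEO's labels call all 84 wells NeuN+, so the fraction was read from the study's supplementary list of well barcodes. All 3 pan-neuronal markers were higher and all 8 oligodendrocyte markers were lower in the wells so listed as NeuN+. The wells of each group came from only 2 to 3 mice, so wells of a group shared mice, and the sources used here do not say which. Wells are not independent animals: every n and SE of wells here counts wells, and the p-values measure the spread between wells and are too small for a comparison between mice.

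Cadherins are adhesion proteins that bind one another across the gap between cells in the presence of calcium, and the classical ones hold the actin skeleton through catenins. Type I and type II cadherins and the delta protocadherins mark sets of neurons and help to sort them into nuclei and circuits, while Fat, Dachsous and Celsr proteins are giant relatives that work in planar polarity and neurite growth. Teneurins are not cadherins but large transmembrane proteins that bind latrophilins across the synapse.

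NeuN- wells held 20962 to 301445 UMIs (median 110247.5) and NeuN+ wells 277113 to 1684374 (median 1064222), so that a NeuN- well offered fewer members to a test. Well levels are CPM, counts scaled to a common library size, over all counts in the well, whereas fold changes came from edgeR's quasi-likelihood test on TMM-scaled counts, with p-values adjusted by Benjamini-Hochberg over all genes tested. In a pool of nuclei, fewer nuclei of a type and less RNA per nucleus cannot be told apart. Marker lists moved with the treatment. In NeuN- wells at 6 h, 5 of 8 oligodendrocyte markers were lower and 1 higher (summed level 4580 to 5596 CPM in IFN-γ wells against 8143 to 9189 CPM in saline wells). At 24 h all 8 were lower (summed level 2913 to 3636 CPM in IFN-γ wells against 8186 to 9802 CPM in saline wells), and all 3 astrocyte markers tested, of 7, were higher (1731 to 2282 against 582 to 1227 CPM). The microglial list was lower in NeuN- wells at 6 h (47.7 to 192 against 458 to 634 CPM), although only 1 of its 8 genes passed the filter on low counts. In NeuN+ wells 2 of 3 VGLUT2 markers were lower at 6 h and all 3 at 72 h. Sex-linked genes also differed between the arms at 6 and 24 h, so sex and treatment cannot be told apart there. At 72 h, 1 of 5 sex-linked genes was lower in NeuN- wells (-1.50 on the log2 scale), 1 of 5 was higher in NeuN+ wells (0.60) and 1 differed between the fractions, while at 48 h only 1 was tested and it was not called. Tenm1, Pcdh11x and Pcdh19, the members on the X chromosome, passed no test of IFN-γ. The part of markers or sex in the results was not tested.

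Most members were neuronal, and a few were clearly glial. Of 28 members that passed the filter on low counts in a fit of all 84 wells, 21 were higher in NeuN+ than in NeuN- wells and 5 were lower, at an adjusted p below 0.05 and a log2 fold change beyond 0.5. Over all 6057 genes tested, 32.6% were higher and 26.0% lower by the same rule, and the median log2 fold change was 1.46 for the members and 0.07 for all genes. The members below the filter were 14.

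The neuronal end was led by type II cadherins, which pair with partners of their own type. Cdh7 ranged from 145 to 296 CPM in NeuN+ wells (median 249) and from 0 to 95.4 CPM in NeuN- wells (median 6.43), a log2 fold change of 5.04 (SE 0.13, adjusted p = 4.36e-57). Cdh12 ranged from 304 to 659.7 CPM in NeuN+ and from 0 to 57.9 CPM in NeuN- wells (log2 fold change 4.48, SE 0.10). The wells of the fractions did not overlap for either gene. Cdh9 (4.35, SE 0.16), the type I cadherin Cdh4, also known as R-cadherin (4.22, SE 0.12), Tenm1 (3.77, SE 0.08) and Tenm4 (3.59, SE 0.08) followed on the same log2 scale.

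The glial end was Cdh19, Cdh20, Pcdh9, Cdh10 and Fat1. Cdh19, a type II cadherin known from the Schwann cell and oligodendrocyte lineage, held 250.3 to 1026 CPM in NeuN- wells (median 684) against 13.9 to 85.9 CPM in NeuN+ wells (median 36.4), a log2 fold change of -4.03 (SE 0.11, adjusted p = 8.67e-56). Cdh20 stood at 906 to 2079 CPM against 177 to 391 CPM (-2.48, SE 0.06). Pcdh9, a delta protocadherin, stood at 6767 to 16816 CPM against 1579 to 4706 CPM (-2.24, SE 0.09). For these 3 genes every NeuN- well lay above every NeuN+ well. The wells did not overlap for Cdh10 either (-1.01, SE 0.05), whereas those of Fat1 did (-0.86, SE 0.09). Cdh6 (0.03, SE 0.11) and Pcdh11x (0.17, SE 0.05) were not called.

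**Figure D1:**
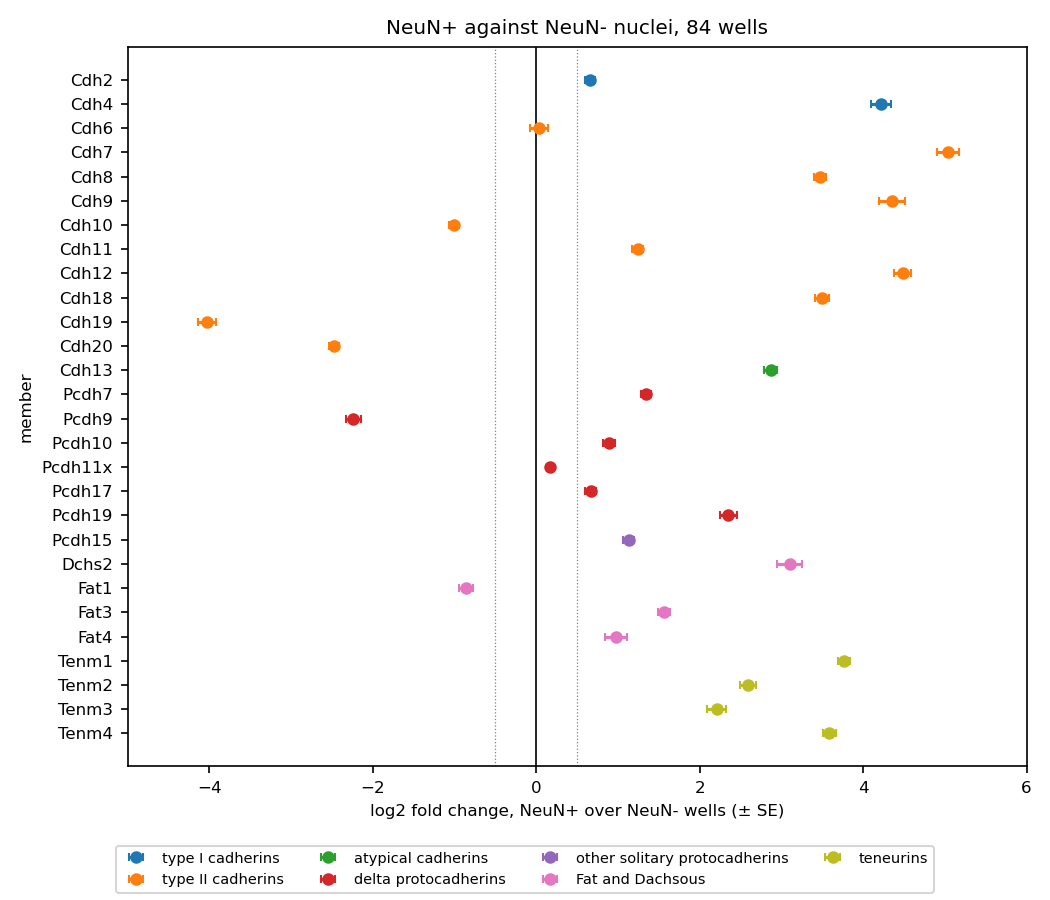
Log2 fold change of NeuN+ over NeuN- wells (x axis, points with standard errors) for the 28 members tested (y axis), coloured by role, with dotted lines at the call limit of 0.5 on either side. All 4 teneurins lie to the right, at 2.21 to 3.77, and Cdh19, Cdh20, Pcdh9, Cdh10 and Fat1 lie to the left.

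The single nuclei showed which cells carry each member. Of 4699 nuclei, clustered without any gene of these symbols, 3744 fell in clusters with a name by markers, namely 405 dopamine, 1131 GABA and 640 VGLUT2 neurons, 1241 oligodendrocytes, 193 astrocytes and 134 microglia, and no barcode was shared between mice. Of the 955 unnamed nuclei, 633 lay in 4 clusters whose closest marker list was that of VGLUT2 neurons. The VGLUT2 class here is therefore only a part of the nuclei that resemble VGLUT2 neurons. Oligodendrocyte-like cluster 0 held 3 nuclei of the saline mouse out of 633 and was led by Iigp1 with Tgtp2 and Irgm2, which are IFN-γ response genes, while cluster 10 held 110 saline nuclei out of 140. Cd74 and H2-Aa, which are MHC class II genes, were among the leading genes of the microglial cluster. UMIs were summed per mouse and class. Of 39 members above the filter, 23 were higher and 2 lower in dopamine neurons than in the mean of the other classes, 29 higher and 1 lower in GABA neurons, 28 higher and 0 lower in VGLUT2 neurons, 8 higher and 15 lower in oligodendrocytes, 15 higher and 9 lower in astrocytes, and 1 higher and 31 lower in microglia (adjusted p below 0.05 by edgeR's quasi-likelihood test and a log2 fold change beyond 1). The shares of all 15563 genes were 20.7% higher and 6.16% lower in dopamine neurons, 22.1% and 6.26% in GABA neurons, 22.9% and 5.52% in VGLUT2 neurons, 16.3% and 14.1% in oligodendrocytes, 14.1% and 9.84% in astrocytes, and 14.5% and 22.0% in microglia. Because the classes were built from the same nuclei, these counts describe the classes and support nothing further.

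Each class had members that stood highest in it, given here as the mean CPM of the 3 mice with its SD. Cdh23, which is best known from the tip links of hair cells, was the member higher in microglia, at 207 ± 132 CPM (SD, n = 3) against 33.2 CPM in the next class, the GABA neurons. Oligodendrocytes had by far the most Pcdh9, 21872 ± 1014 CPM against 6093 CPM in VGLUT2 neurons, and also the most Cdh10 (1324 ± 136 CPM) and Cdh6 (95.4 ± 30.4 CPM). For Cdh6 the mice overlapped with those of GABA neurons, which held more in the saline mouse (68.6 against 60.5 CPM). In astrocytes Fat3 (890.4 ± 95.5 CPM), Pcdh10 and Pcdh17 were highest. Dopamine neurons had the most Cdh11 (567 ± 111 CPM against 185 CPM in astrocytes), Cdh8 (1363 CPM against 651 CPM in GABA neurons) and Cdh13, or T-cadherin, which is held to the membrane by a lipid anchor (780.4 CPM against 495 CPM in GABA neurons). The 3 mice of dopamine neurons did not overlap with those of the next class for these 3 genes. GABA neurons led for Cdh4, Dchs1 and Cdh12 and VGLUT2 neurons for Pcdh20, Cdh22 and Cdh18, by log2 ratios between 0.35 and 0.81 to the next class. Of those 6 only Cdh22 and Cdh18 were without overlap of the mice.

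Cdh19 and Cdh20, the glial cadherins, were shared by 2 classes. Cdh19 stood at 842 CPM in astrocytes and 782 CPM in oligodendrocytes, and the mice of these classes overlapped, while each of the 3 neuron classes held under 1 CPM on average. No UMI of Cdh19 was found in 134 microglia, and a count of 0 allows up to 43.9 CPM in the saline mouse at the upper 95% Poisson limit. Cdh20 stood at 1816 CPM in oligodendrocytes and 1788 CPM in astrocytes, and unlike Cdh19 it was also present in dopamine neurons, at 317, 325 and 219 CPM in the 3 mice. Intervals on UMIs cover counting error only.

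**Figure D2:**
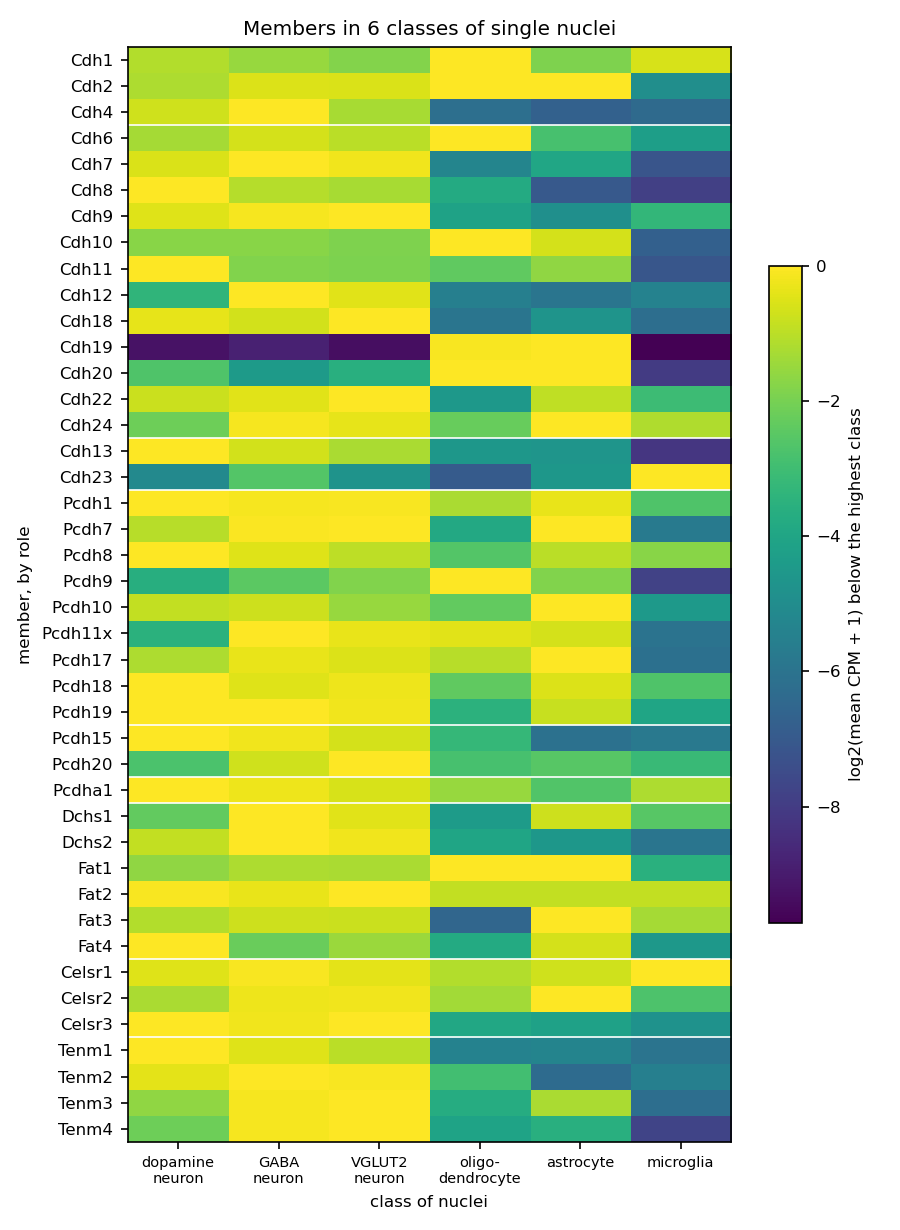
Mean level of each of the 42 members (rows, grouped by role) in 6 classes of single nuclei (columns), as log2(mean CPM of the 3 mice + 1) minus the value of its highest class, so that 0 marks the highest class. Cdh19 stands near 0 in astrocytes and oligodendrocytes alone, Cdh23 in microglia, and most teneurin and type II cadherin rows are lightest in the neurons.

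IFN-γ was next compared with saline within each fraction and time. In NeuN- wells at 6 h, 4 members were higher and 6 lower of 16 tested, against 17.3% higher and 15.9% lower among 2660 genes. At 24 h, 7 were higher and 3 lower of 14 tested, against 20% and 21.3% of 1883 genes. At 48 h, 2 were higher and 0 lower of 16 tested, against 4.21% and 2.00% of 2352 genes, and at 72 h, 0 were higher and 1 lower of 19 tested, against 1.65% and 2.33% of 2916 genes. The median log2 fold change of the members tested was -0.23, 0.24, 0.13 and -0.11 at these times, and that of all genes stayed between -0.01 and 0.01. In NeuN+ wells the counts were 1 higher and 8 lower at 6 h, 3 and 3 at 24 h, 1 and 1 at 48 h, and 4 and 4 at 72 h, with 33 members tested at the first 3 times and 34 at the last. The shares of all genes there were 4.48% higher and 4.12% lower at 6 h (9033 genes), 6.23% and 5.30% at 24 h (9416 genes), 0.628% and 0.239% at 48 h (10033 genes), and 3.37% and 3.80% at 72 h (9405 genes). Members that fell below the filter had no test, and of 42 members between 23 and 28 had none in NeuN- wells.

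**Figure D3:**
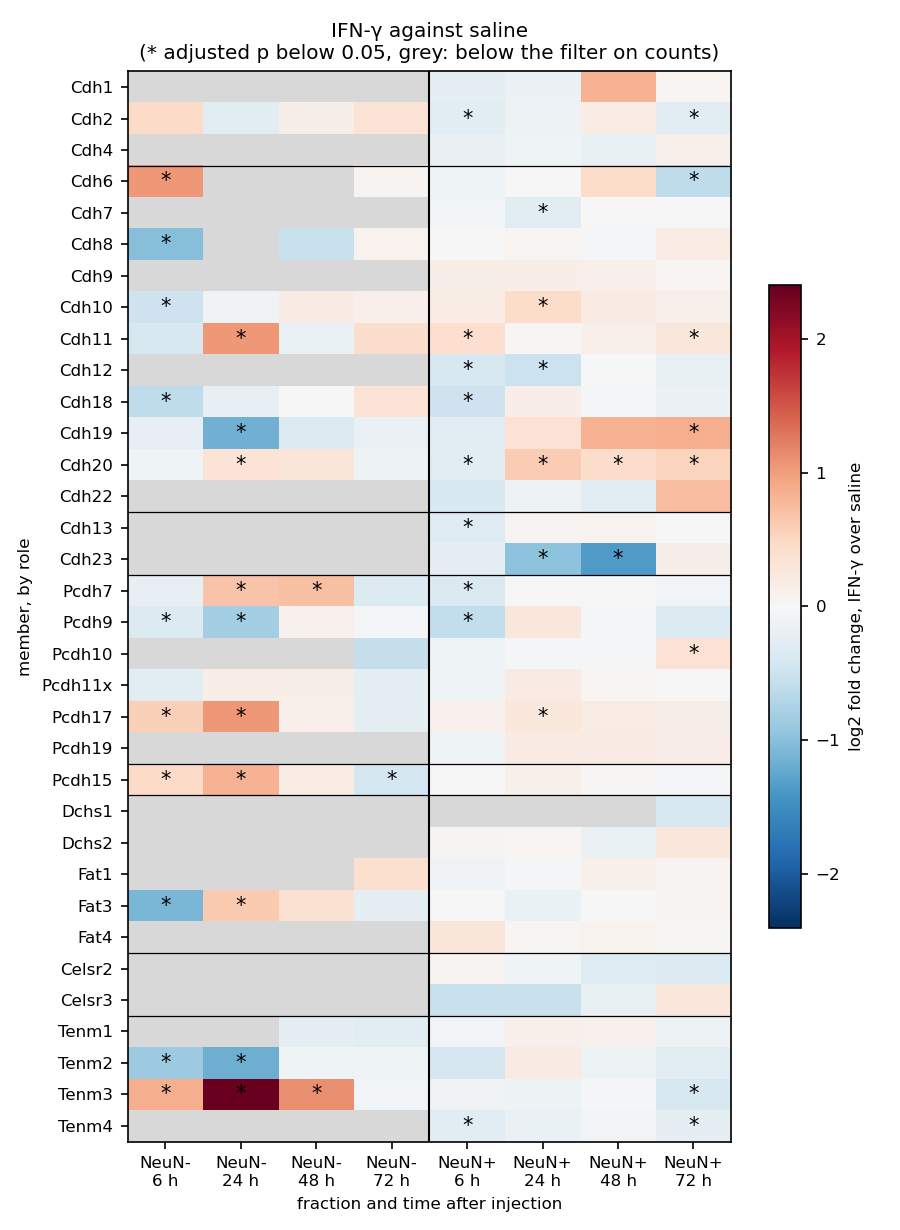
Log2 fold change of IFN-γ over saline wells for the members (rows, by role) that passed the filter in at least 1 of 8 comparisons (columns, fraction and hours after injection), red for higher and blue for lower, with an asterisk at an adjusted p below 0.05 and grey where the filter was not passed. Tenm3 at 24 h in NeuN- wells is the darkest cell, at 2.37, and the darkest in NeuN+ wells is Cdh23 at 48 h, at -1.35.

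Among the teneurins, Tenm3 had the largest change of any member. In NeuN- wells at 24 h it held 14.4 to 132 CPM with saline (median 86.0, n = 6) and 342 to 515 CPM with IFN-γ (median 467, n = 6). Every IFN-γ well lay above every saline well, and the log2 fold change was 2.37 (SE 0.23, adjusted p = 1.05e-09). At 6 h the saline wells held 50.8, 85.6, 90.0 and 143 CPM and the IFN-γ wells 129.9 to 213 CPM (median 172), with a log2 fold change of 0.88 (SE 0.27, adjusted p = 0.00967) and 1 saline well within the IFN-γ range. Without saline well 1 the change at 6 h was 0.63 and was not called. At 48 h the saline wells held 39.3, 74.9, 75.8 and 88.1 CPM and the IFN-γ wells 91.1 to 203 CPM (median 163), without overlap and with a log2 fold change of 1.12 (SE 0.27, adjusted p = 0.00688). At 72 h the log2 fold change was -0.06 (SE 0.24).

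In NeuN+ wells, where Tenm3 is abundant, the log2 fold changes were -0.09, -0.11 and -0.04 at 6, 24 and 48 h (SE 0.07, 0.08 and 0.11), and Tenm3 fell at 72 h. Saline wells then held 890.4, 903, 917 and 935 CPM and IFN-γ wells 682 to 780.4 CPM (median 716), a log2 fold change of -0.38 (SE 0.08, adjusted p = 0.00129). Beside this fall, all 3 VGLUT2 markers were lower and all 5 dopamine markers tested were higher in the same wells. Against saline wells of all times the change at 72 h was -0.16 and was no longer called. The Tenm3 response differed between the fractions by the interaction of NeuN and IFN-γ at 6 h (-1.03, SE 0.27, lost without NeuN- saline well 1 or 2), 24 h (-2.58, SE 0.23, adjusted p = 9.88e-12) and 48 h (-1.18, SE 0.28, lost without any of 8 single wells and without a filter on low counts), as the log2 change in NeuN+ minus that in NeuN- wells.

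In the single nuclei at 48 h, Tenm3 was higher in the oligodendrocytes of both IFN-γ mice than in those of the saline mouse. Oligodendrocyte nuclei held 6 UMIs of Tenm3 in the saline mouse (8.64 CPM, 95% Poisson interval 3.17 to 18.8) and 141 and 163 UMIs in the IFN-γ mice (52.2 CPM, 43.9 to 61.6, and 113 CPM, 96.2 to 132). The log2 ratios were 2.60 and 3.71, and 1 saline mouse allows no test. UMIs of Tenm3 were found in 5 of 191 saline nuclei (2.62%), and in 69 of 744 (9.27%) and 38 of 306 (12.4%) IFN-γ nuclei. Most lay in cluster 0, at 81.4 and 187 CPM in the IFN-γ mice, whereas cluster 2, which all mice filled, held 5.98 CPM in the saline mouse and 13.1 and 20.7 CPM in the IFN-γ mice. A single nucleus held at most 26 UMIs. Among microglia, which hold little Tenm3, 3.73% of 134 nuclei had a UMI, at a median depth of 3416 UMIs per nucleus against 3533 in cluster 0. Oligodendrocyte nuclei stayed below the astrocytes, where Tenm3 stood at 329.8, 391 and 241 CPM in the saline mouse and IFN-γ mice 1 and 2, with no change of over 2-fold in either. The saline mouse gave 21 astrocyte nuclei. At 24 h, the time of the largest Tenm3 change, all 3 astrocyte markers tested were higher in NeuN- wells.

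Tenm2, the teneurin with the most counts, moved the opposite way in NeuN- wells. At 24 h it held 349.7 to 454 CPM with saline (median 408) and 119 to 382 CPM with IFN-γ (median 215), a log2 fold change of -1.18 (SE 0.20, adjusted p = 2.31e-05). At 6 h the saline wells held 351, 449, 479 and 659.8 CPM and the IFN-γ wells 125 to 763 CPM (median 288), a log2 fold change of -0.87 (SE 0.21, adjusted p = 0.00129), a call lost with DESeq2 (-0.75) and in 1 fit of all 84 wells (-0.80). The ranges overlapped at both times, with 1 IFN-γ well of 24 h and 2 of 6 h above the lowest saline well. In neurons, which hold most Tenm2, the NeuN+ change was 0.21 at 24 h (SE 0.16), and the fractions differed (interaction 1.29, SE 0.29, adjusted p = 0.00115). The 1 pan-neuronal marker tested in NeuN- wells was lower too, by 1.06 at 6 h and 1.22 at 24 h on the log2 scale.

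Tenm4 was slightly lower in NeuN+ wells at 6 h, with saline wells at 570.2, 574, 587 and 658 CPM and IFN-γ wells at 494 to 551 CPM (log2 fold change -0.25, SE 0.07, adjusted p = 0.0181), and at 72 h (-0.24, SE 0.07, adjusted p = 0.047). Its wells did not overlap at either time. The call at 6 h was lost in 1 fit of all 84 wells. Tenm4 is highest in VGLUT2 neurons (816 CPM, with overlap of the mice with GABA neurons), whose markers were lower in the same wells at 6 h (2 of 3) and 72 h (3 of 3). Tenm1 passed no test, with log2 fold changes of -0.12 to 0.12 in NeuN+ wells.

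Of the receptors and ligands of the teneurins, Adgrl3 was called at the same times as Tenm3 in NeuN- wells. Adgrl3, a latrophilin, rose in NeuN- wells at 6 h (log2 fold change 0.35, SE 0.10), 24 h (1.33, SE 0.13, adjusted p = 8.20e-10) and 48 h (0.71, SE 0.11), as the only gene of its 6-member receptor and ligand list tested there at those times. In oligodendrocyte nuclei Adgrl3 stood at 204 CPM in the saline mouse and 488 and 539 CPM in the IFN-γ mice, and in astrocytes, where it was more abundant, at 2428, 2599 and 2492 CPM. All 3 astrocyte markers tested were higher in NeuN- wells at 24 h, and their part in the rise of Adgrl3 was not tested. In NeuN+ wells 1 gene of the list was lower at 24 h (Adgrl2, -0.18) and at 72 h Flrt2 rose (0.27) and Flrt3 fell (-0.44).

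Tenm3 lies on chr8:48227682-48843951 of GRCm38 (minus strand, GENCODE vM21), Pcdh17 on chr14:84443563-84539002 and Cdh20 on chr1:104768529-104995481 (both plus strand). RefSeq gave a start site window for 31 of the 42 members. The 250 bases before the RefSeq start are shown for 3 of the 6 members that rose at more than 1 time in a fraction, as examples: Tenm3 and Pcdh17 in NeuN- wells and Cdh20 in NeuN+ wells. The others were Pcdh7 and Pcdh15 in NeuN- and Cdh11 in NeuN+ wells. They are from GRCm38.p6, read 5′ to 3′ on the strand of the gene.
Tenm3 chr8:48674691-48674940: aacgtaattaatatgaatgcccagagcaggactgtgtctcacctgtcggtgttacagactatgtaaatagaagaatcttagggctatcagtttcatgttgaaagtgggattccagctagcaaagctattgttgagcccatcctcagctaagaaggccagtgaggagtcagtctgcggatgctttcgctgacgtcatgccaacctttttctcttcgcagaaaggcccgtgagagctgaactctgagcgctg
Pcdh17 chr14:84443313-84443562: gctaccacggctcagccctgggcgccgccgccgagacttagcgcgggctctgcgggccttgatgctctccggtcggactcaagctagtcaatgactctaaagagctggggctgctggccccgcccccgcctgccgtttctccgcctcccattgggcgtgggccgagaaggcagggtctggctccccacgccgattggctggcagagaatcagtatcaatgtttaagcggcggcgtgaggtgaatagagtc
Cdh20 chr1:104768270-104768519: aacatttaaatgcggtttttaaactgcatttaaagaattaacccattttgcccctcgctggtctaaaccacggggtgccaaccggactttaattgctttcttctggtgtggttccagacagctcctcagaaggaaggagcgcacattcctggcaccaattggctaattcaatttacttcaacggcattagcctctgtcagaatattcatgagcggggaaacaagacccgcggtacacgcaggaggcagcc

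The RefSeq start of Tenm3 lies 169261 bases inside the 5′ end of the GENCODE gene, and the counts, which are per gene, do not say which start was used. Among windows of 250 bases before and 50 after the start, the letters GAAANNGAAA of an interferon response pair, searched on both strands, were found for 3.99% of all 27025 genes with a window and for 2 of the 31 members, Tenm1 and Tenm4. A match of letters is no evidence of binding.

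The type I cadherins changed little. Cdh2, or N-cadherin, which joins neurons and neural progenitors, fell in NeuN+ wells at 72 h from 531, 547, 550.1 and 556 CPM to 453 to 477 CPM (median 467), without overlap (log2 fold change -0.27, SE 0.06, adjusted p = 0.00581). At 6 h it fell by 0.28 on the log2 scale (SE 0.06, adjusted p = 0.00506) and its wells overlapped. That call was lost in 1 fit of all 84 wells. The change at 6 h in NeuN- wells was 0.46 and was not called, and the fractions differed there (interaction -0.79, SE 0.21, adjusted p = 0.0121), a call lost without any of 4 single NeuN- wells (-0.70 to -0.49). Cdh1 and Cdh4, which are E- and R-cadherin, passed no IFN-γ test.

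Among the type II cadherins the glial pair Cdh19 and Cdh20 moved apart in NeuN- wells at 24 h. Cdh19 fell from 563 to 1026 CPM with saline (median 751) to 250.3 to 417 CPM with IFN-γ (median 379), without overlap, a log2 fold change of -1.15 (SE 0.14, adjusted p = 8.20e-08). Cdh20 rose from 1179.8 to 1686 CPM (median 1455) to 1547 to 2079 CPM (median 1958), with overlap, a log2 fold change of 0.32 (SE 0.11, adjusted p = 0.0211) that was no longer called without saline well 1, 2 or 3 (0.25 to 0.28). Both genes belong to oligodendrocytes and astrocytes in the nuclei, and in the same wells the oligodendrocyte list fell and the astrocyte list rose. In oligodendrocyte nuclei at 48 h, Cdh19 stood at 884 CPM in the saline mouse and 620.2 and 842 CPM in the IFN-γ mice, and Cdh20 at 1552 CPM and at 2000 and 1896 CPM.

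In NeuN+ wells Cdh20 was the member with calls at all 4 times. It fell at 6 h from 213, 234, 237 and 239.6 CPM to 189 to 224 CPM (log2 fold change -0.27, SE 0.07, adjusted p = 0.0105). That call was lost in 1 fit of all 84 wells. Cdh20 then rose at 24 h, from 177 to 278 CPM (median 254) to 327 to 391 CPM (median 363), with a log2 fold change of 0.60 (SE 0.08, adjusted p = 2.45e-06). The rise was 0.42 at 48 h (SE 0.09, adjusted p = 0.0139), where 1 IFN-γ well lay within the saline range and the call was lost without saline well 2 or 4 or IFN-γ well 2 (0.37 to 0.40), and 0.53 at 72 h (SE 0.06, adjusted p = 6.36e-07), from 219, 234, 243 and 250.1 CPM to 338 to 372 CPM without overlap. The astrocyte list was lower at 6 h (2 of 3 tested) and higher at 24 h (3 of 3), 48 h (2 of 3) and 72 h (2 of 4) in these wells. The oligodendrocyte list was lower at 6 h (4 of 7), mixed at 24 h (1 higher and 3 lower of 7), without calls at 48 h and higher at 72 h (7 of 8). In dopamine nuclei at 48 h, the neurons with the most Cdh20, it stood at 317 CPM in the saline mouse and 325 and 219 CPM in the IFN-γ mice.

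Cdh19 rose in NeuN+ wells at 72 h, from 16.5, 36.8, 43.5 and 54.0 CPM to 66.3 to 85.9 CPM (median 75.0), without overlap (log2 fold change 0.87, SE 0.14, adjusted p = 9.44e-05). As neuron nuclei held under 1 CPM of Cdh19, the summed oligodendrocyte list of these wells is given beside it: 408 to 495 CPM with saline and 743 to 846 CPM with IFN-γ. The Cdh19 response differed between the fractions at 24 h (interaction 1.40, SE 0.19, adjusted p = 1.94e-07), 48 h (1.13, SE 0.21) and 72 h (1.05, SE 0.18), and that of Cdh20 at 72 h (0.67, SE 0.13, adjusted p = 0.000906).

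**Figure D4:**
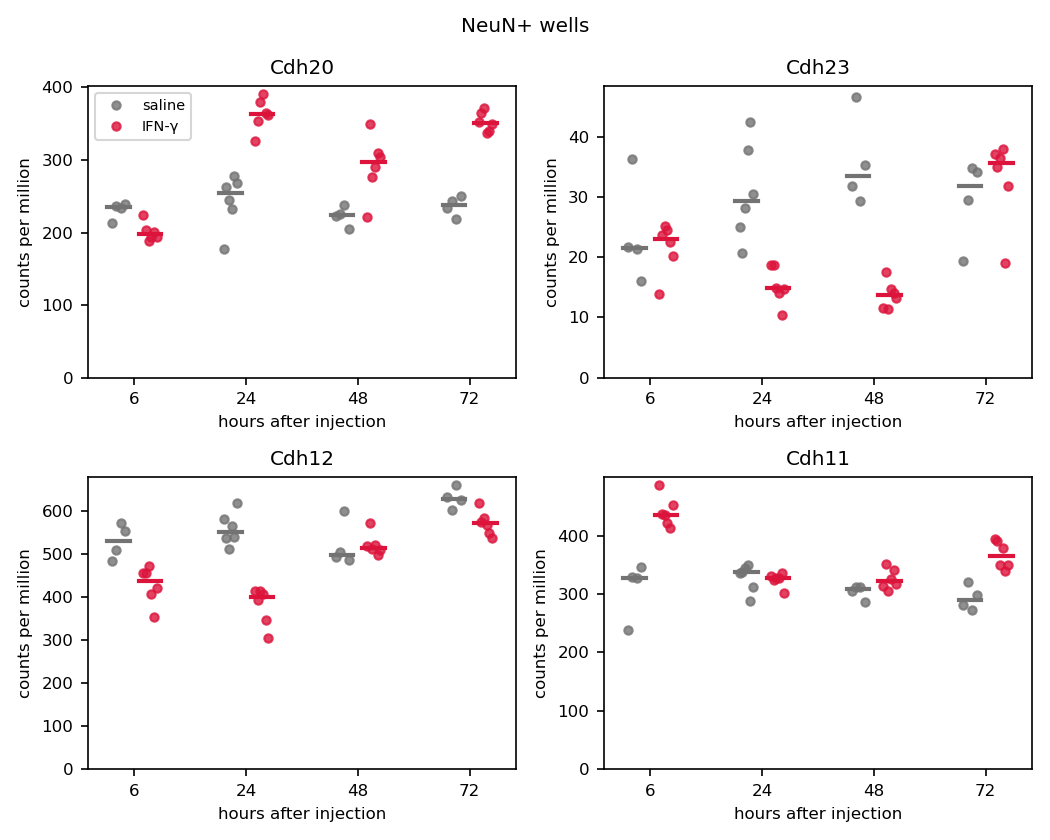
CPM in single NeuN+ wells (points) with group medians (bars) for Cdh20, Cdh23, Cdh12 and Cdh11, saline in grey and IFN-γ in red, at 6 to 72 h after injection. Cdh20 wells with IFN-γ are above those with saline at 24 and 72 h, and Cdh23 wells with IFN-γ are below them at 24 and 48 h, without overlap.

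Cdh11, known from mesenchyme and from axon growth, rose in both fractions at different times. In NeuN- wells at 24 h it went from 74.1 to 132 CPM (median 111) to 222 to 296 CPM (median 238), a log2 fold change of 1.04 (SE 0.19, adjusted p = 4.69e-05). In NeuN+ wells it went at 6 h from 238, 327, 329 and 346 CPM to 413 to 487 CPM (median 436, log2 fold change 0.41, SE 0.06, adjusted p = 3.85e-05), and at 72 h from 272, 281, 298 and 321 CPM to 340.0 to 395 CPM (0.28, SE 0.06, adjusted p = 0.00409). In none of these did the wells overlap. Cdh11 is highest in dopamine neurons, whose markers were higher in NeuN+ wells at 72 h (5 of 5 tested) and, for 1 of 5, at 6 h. The next class is the astrocytes (185 CPM), and all 3 astrocyte markers tested were higher in NeuN- wells at 24 h.

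Cdh12, a cadherin of GABA and VGLUT2 neurons, fell in NeuN+ wells at 6 and 24 h. At 6 h the saline wells held 484, 509, 553 and 572 CPM and the IFN-γ wells 353 to 471 CPM (median 438, log2 fold change -0.38, SE 0.07, adjusted p = 0.000287). At 24 h they held 511 to 618 CPM (median 551) and 304 to 414 CPM (median 399), a log2 fold change of -0.51 (SE 0.08, adjusted p = 3.20e-05). The wells were apart at both times. Both GABA markers tested were also lower at 24 h, by 0.78 and 1.28 on the log2 scale, and 1 of them at 6 h. In GABA nuclei at 48 h Cdh12 stood at 375 CPM in the saline mouse and 628 and 379 CPM in the IFN-γ mice.

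Other type II cadherins had fewer calls. Cdh10, which is highest in oligodendrocytes, fell in NeuN- wells at 6 h from 1165, 1239.5, 1291 and 1302 CPM to 803 to 1054 CPM (log2 fold change -0.50, SE 0.10, adjusted p = 0.000166) and rose in NeuN+ wells at 24 h from 498 to 654 CPM to 706 to 758 CPM (0.44, SE 0.08, adjusted p = 0.000442), without overlap in either. In the NeuN- wells at 6 h, 5 of 8 oligodendrocyte markers were lower too, with a median log2 fold change of -1.05 over the list. Cdh6 rose in NeuN- wells at 6 h from 19.99, 50.8, 57.3 and 77.1 CPM to 83.5 to 155 CPM (1.04, SE 0.33, adjusted p = 0.0135) and fell in NeuN+ wells at 72 h from 103, 109, 113 and 114 CPM to 68.0 to 82.1 CPM (-0.61, SE 0.09, adjusted p = 2.22e-05), the latter lost against saline wells of all times (-0.26). Cdh8 fell in NeuN- wells at 6 h, from 102, 111, 120.0 and 134 CPM to a median of 54.4 CPM, although 1 IFN-γ well held 286 CPM (log2 fold change -1.03, SE 0.34, adjusted p = 0.0174). That well held 20962 UMIs, the fewest of its group. Cdh18 fell at 6 h in NeuN+ wells (-0.50, SE 0.11, adjusted p = 0.00177), a call lost against saline wells of all times (-0.29). It is highest in VGLUT2 neurons (3038 CPM), of whose 3 markers 2 were lower in the same wells (median log2 fold change -0.43). In NeuN- wells Cdh18 fell as well (-0.60, SE 0.22, adjusted p = 0.036), a call lost under 5 other settings and without any of 6 single wells. The call of Cdh6 at 6 h was lost with DESeq2 and without saline well 3 (0.81), and that of Cdh8 with DESeq2, without a filter on low counts and without IFN-γ well 3 (-0.85). Cdh7 fell in NeuN+ wells at 24 h (-0.25, SE 0.08, adjusted p = 0.0395), a call lost without any of 10 single wells, with DESeq2 and with a lower filter on counts. Cdh9 and Cdh22, both neuronal, passed no IFN-γ test, and Cdh24 did not reach the filter.

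Of the atypical cadherins, Cdh23 gave the largest fall in NeuN+ wells. At 24 h it went from 20.8 to 42.6 CPM (median 29.4) to 10.4 to 18.8 CPM (median 14.9), a log2 fold change of -0.98 (SE 0.21, adjusted p = 0.00207). At 48 h the saline wells held 29.4, 31.9, 35.4 and 46.7 CPM and the IFN-γ wells 11.4 to 17.6 CPM (median 13.7), a log2 fold change of -1.35 (SE 0.20, adjusted p = 0.000397). The groups were apart at both times, and Cdh23 was not called at 6 or 72 h. The microglial list, from the class with the most Cdh23, had no call in NeuN+ wells at any time. Of the GABA neurons, the neurons with the most Cdh23, both markers tested were lower in NeuN+ wells at 24 h (-0.78 and -1.28) and neither was called at 48 h. Among nuclei at 48 h, Cdh23 stood in microglia at 357 CPM in the saline mouse (30 UMIs) and 112 and 151 CPM in the IFN-γ mice (22 and 35 UMIs). In GABA neurons it stood at 27.3 CPM and at 54.8 and 17.5 CPM, and 2 GABA clusters have it among their leading genes. Most nuclei of these clusters came from IFN-γ mouse 1, since cluster 4 held 48 nuclei of the saline mouse and 269 and 43 of the IFN-γ mice, and cluster 19 held 0, 50 and 0. In VGLUT2 neurons it stood at 1.69 CPM and at 7.81 and 11.02 CPM, from 6, 46 and 30 UMIs. Cdh13 fell in NeuN+ wells at 6 h from 303, 348, 352 and 356 CPM to 279 to 313 CPM (-0.32, SE 0.06, adjusted p = 0.00071), with overlap.

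The delta protocadherins of NeuN- wells divided at 24 h, with Pcdh7 and Pcdh17 higher and Pcdh9 lower. Pcdh17, which is known from the assembly of synapses in the basal ganglia, rose at 6 h from 146, 162, 189.9 and 239 CPM to 269 to 314 CPM (median 291, log2 fold change 0.57, SE 0.18, adjusted p = 0.0102). At 24 h it rose from 115 to 205 CPM (median 162) to 236 to 445 CPM (median 362), a log2 fold change of 1.04 (SE 0.18, adjusted p = 2.33e-05), and the wells were apart at both times. The call at 6 h was lost with DESeq2 and without saline well 2 (0.46). Pcdh7 rose at 24 h from 375 to 638 CPM (median 474) to 707 to 892 CPM (median 863, 0.68, SE 0.12, adjusted p = 5.33e-05) and at 48 h from 324, 373, 387 and 404 CPM to 540.4 to 706 CPM (median 577, 0.72, SE 0.13, adjusted p = 0.000217), again without overlap, although the call at 48 h was lost against saline wells of all times. Pcdh9, the protocadherin of oligodendrocytes, fell at 24 h from 12953 to 16816 CPM (median 14395) to 6767 to 10276 CPM, a log2 fold change of -0.81 (SE 0.13, adjusted p = 1.00e-05), and at 6 h by 0.33 (SE 0.09, adjusted p = 0.00468). In oligodendrocyte nuclei at 48 h Pcdh9 stood at 20857 CPM in the saline mouse and 22885 and 21873 CPM in the IFN-γ mice.

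In astrocyte nuclei at 48 h, whose mean Pcdh17 and Pcdh7 are the highest of the classes with overlap of the mice, neither rose by 2-fold. Pcdh17 stood there at 329.8 CPM in the saline mouse and 235 and 245 CPM in the IFN-γ mice, and Pcdh7 at 1759 CPM and at 1508 and 1676 CPM. The saline mouse gave 21 astrocyte nuclei, and Pcdh17 had no call in NeuN- wells at 48 h. In NeuN- wells at 24 h the summed astrocyte list was higher with IFN-γ (1731 to 2282 against 582 to 1227 CPM). Its part in these rises was not tested. In NeuN+ wells Pcdh17 rose at 24 h (0.26, SE 0.08, adjusted p = 0.0356), Pcdh10 rose at 72 h from 117, 126, 136 and 152 CPM to 144 to 189 CPM (0.34, SE 0.09, adjusted p = 0.011), and Pcdh7 and Pcdh9 fell at 6 h. Pcdh7 went from 1377, 1407, 1430.3 and 1573 CPM to 1151 to 1233 CPM (-0.34, SE 0.08, adjusted p = 0.00594), a call lost in 1 fit of all 84 wells. Pcdh9 went from 2646, 2664, 2797 and 4706 CPM to 1841 to 2714 CPM (-0.60, SE 0.15, adjusted p = 0.00904), with saline well 1 far above the others. Without that well the change of Pcdh9 was -0.31 and was not called, nor was it with DESeq2, in 1 fit of all 84 wells or against saline wells of all times. The rise of Pcdh10 was not called without saline well 1 or 2 (0.28 and 0.30), and that of Pcdh17 in NeuN+ wells without any of 6 single wells (0.21 to 0.26), and neither was called with DESeq2. Of the remaining delta protocadherins, Pcdh11x and Pcdh19 passed no test and Pcdh1, Pcdh8 and Pcdh18 had none.

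**Figure D5:**
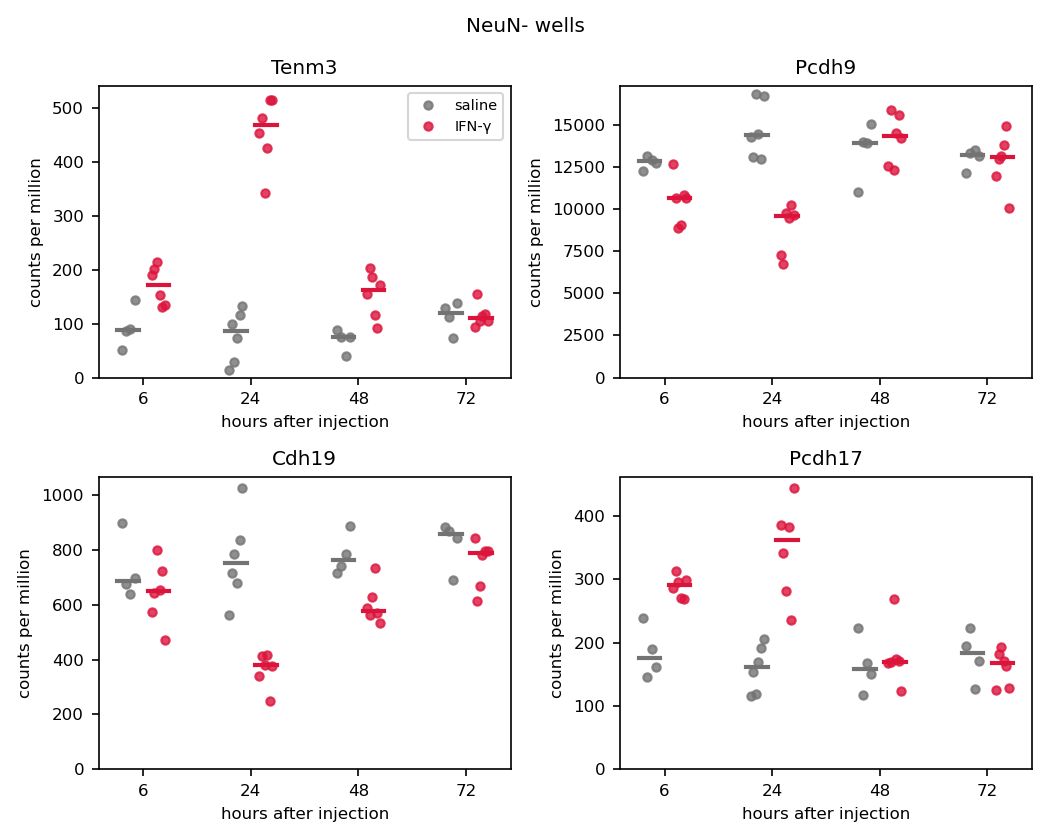
CPM in single NeuN- wells (points) with group medians (bars) for Tenm3, Pcdh9, Cdh19 and Pcdh17, saline in grey and IFN-γ in red, at 6 to 72 h after injection. At 24 h the 6 IFN-γ wells are above all saline wells for Tenm3 and Pcdh17 and below them for Pcdh9 and Cdh19, and at 72 h the groups of all 4 genes overlap.

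Pcdh15, the partner of Cdh23 in the tip links of hair cells, turned over time in NeuN- wells. It rose at 6 h from 549.8, 620.5, 667 and 719 CPM to 779.5 to 1097 CPM (median 928, log2 fold change 0.45, SE 0.12, adjusted p = 0.00234) and at 24 h from 473 to 837 CPM (median 599) to 763 to 1325 CPM (median 1229, 0.83, SE 0.13, adjusted p = 5.91e-06). At 72 h it fell from 690.1, 699, 779.6 and 811 CPM to 503 to 634 CPM (median 555, -0.43, SE 0.11, adjusted p = 0.0184), a call lost without saline well 2 or 4 or IFN-γ well 1 (-0.41 to -0.38) and under 4 other settings. The groups overlapped at 24 h through 1 low IFN-γ well and were apart at 6 and 72 h. Pcdh15 was abundant in all 3 neuron classes, at a mean of 2269.7 CPM in dopamine neurons, and lower in oligodendrocytes, at 196 CPM in the saline mouse and 238 and 283 CPM in the IFN-γ mice. No cluster of nuclei was named for oligodendrocyte precursors, so their Pcdh15 level was not measured in nuclei. Of 4 markers of oligodendrocyte precursors, 1 was tested in NeuN- wells, with log2 fold changes of 0.08, 0.19, 0.15 and -0.52 at the 4 times and no call. The part of such precursors in the Pcdh15 changes was not tested. In NeuN+ wells Pcdh15 changed by -0.04 to 0.13 and was not called. Pcdh20 and Pcdha1 did not reach the filter in any comparison with saline.

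Among Fat and Dachsous genes only Fat3 was called. It fell in NeuN- wells at 6 h from 119.9, 123, 159.9 and 258 CPM to 47.7 to 105 CPM (median 79.5), without overlap (log2 fold change -1.09, SE 0.27, adjusted p = 0.00187). At 24 h it rose from 109 to 293 CPM (median 161) to 252 to 315 CPM (median 285), with overlap (0.62, SE 0.20, adjusted p = 0.0125). In nuclei, Fat3 stood highest in astrocytes and also at 393, 521 and 159 CPM in the microglia of the saline mouse and IFN-γ mice 1 and 2. The microglial list fell at 6 h and the astrocyte list rose at 24 h in the wells of these calls. NeuN+ wells gave changes of Fat3 between -0.15 and 0.07, and the fractions differed at 6 h (interaction 1.06, SE 0.27, adjusted p = 0.00713) and 24 h (-0.88, SE 0.20, adjusted p = 0.00114). Fat1, Fat4, Dchs1 and Dchs2 passed no test where they reached the filter, and Fat2, with 80 counts in all, reached none. Celsr2 changed by -0.33 to 0.06 and Celsr3 by -0.54 to 0.27 in NeuN+ wells on the log2 scale with standard errors of 0.22 to 0.28, and neither was called. Celsr1 did not reach the filter.

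The response of a member to IFN-γ differed between the fractions for 6 members at 6 h (28 tested), 11 at 24 h (29 tested), 2 at 48 h (28 tested) and 2 at 72 h (30 tested). The shares of all genes with such a difference were 8.65%, 11.1%, 0.723% and 1.87% at these times. The 11 members at 24 h were Tenm2, Tenm3, Cdh6, Cdh8, Cdh11, Cdh19, Fat3, Pcdh7, Pcdh9, Pcdh15 and Pcdh17. Of these, Cdh6 (-1.50, SE 0.32) and Cdh8 (1.33, SE 0.33) had no test in NeuN- wells at 24 h, being under the filter there. At 6 h the call of Cdh6 was lost without any of 4 single wells, that of Cdh8 without any of 6 and without a filter on low counts, and that of Fat3 without 1 well.

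In the nuclei at 48 h, few members passed 2-fold in the same direction in both IFN-γ mice. There were 0 of 36 in dopamine neurons (against 1.27% of all genes with enough UMIs), 0 of 39 in GABA neurons (1.96%), 1 of 38 in VGLUT2 neurons (2.28%), 1 of 26 in oligodendrocytes (6.07%), 1 of 23 in astrocytes (11.8%) and 2 of 6 in microglia (16.9%). They were Cdh23 in VGLUT2 neurons (higher) and in microglia (lower), Tenm3 in oligodendrocytes (higher), Fat4 in astrocytes (lower, from 7, 19 and 6 UMIs) and Cdh18 in microglia (higher, from 1, 13 and 10 UMIs). With 1 saline mouse there is no test of these differences.

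The partners of the cadherins, which are no members, moved in NeuN- wells too. Of 7 catenins, the cytoplasmic anchors of cadherins, 4 were tested in NeuN- wells at 24 h, and 2 rose and 1 fell. Ctnna3, or alpha-T-catenin, fell by 2.05 on the log2 scale (SE 0.12, adjusted p = 6.23e-14), while Ctnnd2, or delta-catenin (1.01, SE 0.14), and Ctnna2 (0.67, SE 0.10) rose. Ctnna3 was lower at 6 h (-0.33) and 48 h (-0.49) as well, and in oligodendrocyte nuclei it stood at 2203 CPM in the saline mouse and 1673 and 1787 CPM in the IFN-γ mice. Of 8 planar polarity genes, 2 were tested in NeuN- wells at 24 h and both fell, Prickle2 by 1.53 (SE 0.11, adjusted p = 5.20e-12) and Prickle1 by 0.68 (SE 0.27, adjusted p = 0.0469). In the same wells the summed oligodendrocyte list stood at 2913 to 3636 CPM with IFN-γ and 8186 to 9802 CPM with saline. All 3 astrocyte markers tested were higher there. The part of these lists in the partner changes was not tested. In NeuN+ wells 1 of 5 catenins tested was lower at 24 h (Ctnna3, -0.47) and 2 of 5 at 6 h (Ctnnb1, or beta-catenin, -0.52, and Ctnna2, -0.33), and of the polarity genes Vangl2 rose at 24 h (0.75). At 72 h, 2 of 5 polarity genes tested in NeuN+ wells fell, Vangl1 by 1.61 (SE 0.24, adjusted p = 2.00e-05) and Prickle2 by 0.23 (SE 0.07, adjusted p = 0.0452).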

How the data were processed

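The authors deposited UMI counts per gene, for 84 wells of sorted nuclei and for 4699 single nuclei. The submitters' processing notes name STAR and GRCm38 without a version. The members and gene lists were chosen with earlier results of these data known. Wells were fitted with edgeR 4.0.16 (R 4.3.3), TMM factors, filterByExpr and the quasi-likelihood test, within each fraction and time, across fractions for the interaction of NeuN and IFN-γ, and across all wells for NeuN+ against NeuN-. Calls needed a Benjamini-Hochberg adjusted p below 0.05 over all genes tested. The call limit on the log2 fold change was 0.5 between the fractions and 1 between classes. Nuclei were clustered by leidenalg 0.10.2 on 30 principal components of 2000 variable genes without member symbols, named from fixed markers, and summed per mouse and class. Doublets were not called again, since the paper reports that its 4699 nuclei were those left once doublets had been filtered out. Ratios between nuclei of IFN-γ and saline mice needed 20 UMIs over 3 mice. Named genes were every member with a call beyond 1 on the log2 scale and up to 6 others a comparison, the 6 most changed between the fractions in each direction, up to 6 members with an interaction a time, the 3 leading members a class, and all teneurin, Fat, Celsr and Dachsous genes. Other called members are named after their values were seen. Alternatives were other scalings, filters, controls, calls, clusterings and DESeq2 1.42.0, and each well was left out in turn. Scripts were tested on simulated data.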

Additional observations from a re-analysis of the deposited data

Results flagged for a closer look

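Among 84 groups of wells of the members named, 7 held 1 well far from the others of its group, and chance gives about 1 group in 20. Saline well 1 of NeuN+ nuclei at 6 h stood apart for 3 genes, with 4706 CPM of Pcdh9 (the nearest well held 2797), 2605 CPM of Cdh18 (nearest 1987) and 303 CPM of Cdh13 (nearest 348). IFN-γ well 1 of NeuN- nuclei at 6 h stood above its group for 3 genes, with 286 CPM of Cdh8 (nearest 74.2), 763 CPM of Tenm2 (nearest 357) and 334 CPM of Cdh18 (nearest 158). IFN-γ well 3 of NeuN- nuclei at 24 h held 763 CPM of Pcdh15 (nearest 1189). Each of these wells held the fewest UMIs of its group, at 277113, 20962 and 49776 UMIs in the order given. Several genes were flagged in the same well, so the 7 groups are not independent of one another.

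The effect of IFN-γ differed between NeuN+ and NeuN- nuclei in 21 tests of the interaction, given as the log2 change in NeuN+ minus that in NeuN- wells. At 6 h the differences were 0.64 for Cdh10, -0.79 for Cdh2, -1.22 for Cdh6, 0.99 for Cdh8, 1.06 for Fat3 and -1.03 for Tenm3. At 24 h they were -1.11 for Cdh11, 1.40 for Cdh19, -1.50 for Cdh6, 1.33 for Cdh8, -0.88 for Fat3, -0.79 for Pcdh15, -0.88 for Pcdh17, -0.75 for Pcdh7, 1.01 for Pcdh9, 1.29 for Tenm2 and -2.58 for Tenm3. At 48 h they were 1.13 for Cdh19 and -1.18 for Tenm3, and at 72 h 1.05 for Cdh19 and 0.67 for Cdh20.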

How the results depend on the processing

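Of 69 named values, 45 kept their call under every alternative run, 24 lost it under at least 1, 18 of them when a single well was left out, and 0 changed direction. Calls against saline left out of this tally were those of Tenm4 and Cdh2, Cdh20 in NeuN+ wells at 6 h and Pcdh9 in NeuN- wells at 6 h. Of these, the calls of Tenm4, Cdh2 and Cdh20 in NeuN+ wells at 6 h were lost in 1 fit of all 84 wells. Members called in NeuN- wells at 6 h numbered 5 with DESeq2, and in NeuN+ wells at 6 h 4 in 1 fit of all 84 wells. In NeuN- wells at 72 h the count was 0 without a filter on low counts, with DESeq2, against saline wells of all times and in 1 fit of all wells. The interaction at 48 h gave 1 without the filter. At an adjusted p below 0.01 and a log2 fold change beyond 1, NeuN- wells gave 1, 5, 1 and 0 members and NeuN+ wells 0, 0, 1 and 0 at 6, 24, 48 and 72 h. Leaving out 1 well gave 8 to 11, 10 to 11, 2 to 3 and 0 to 1 members in NeuN- wells, 8 to 10, 4 to 7, 1 to 2 and 6 to 8 in NeuN+ wells, and 3 to 7, 11 to 13, 1 to 3 and 2 to 3 for the interaction at those times. With 1 IFN-γ mouse left out, 14 or 16 ratios in nuclei passed 2-fold in place of 5, since each then rested on 1 mouse. The cause of the other shifts was not tested. No paired analysis was possible because the labels do not say which wells share a mouse. Low depth of NeuN- wells limits which members could be tested.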
